A study of Mus musculus with 36 samples.

Results

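5-methylcytosine (5mC) was measured by oxidative bisulfite sequencing (oxBS) in articular cartilage 4 weeks after destabilization of the medial meniscus (DMM), the surgery that starts post-traumatic osteoarthritis (OA) in mice. Members were the autosomal CpG cytosines, counted by strand, that had at least 10 oxBS reads in all 6 libraries of 4 weeks, and 1424658 of the 2279889 cytosines listed in at least 1 of these libraries qualified (62.5%). The comparison asks which methylation differences accompany early disease. Both groups came from male C57BL/6J mice operated at 12 weeks of age. The DMM group was the operated right knee and the control group the contralateral, non-operated left knee of operated mice, with 3 libraries in each, and each library held DNA of cartilage pooled from 3 knees (tibial plateaus and femoral condyles). All mice had surgery on the right knee, there was no sham group, and surgery and side of the body therefore cannot be told apart. In DNA of whole tissue, a different mix of cells and a different methylation within the cells cannot be told apart either.

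In mammals, methyl groups on DNA sit almost entirely on cytosines that precede a guanine. DNMT3A and DNMT3B place them, DNMT1 copies them after replication, and TET enzymes oxidise 5mC to 5-hydroxymethylcytosine (5hmC). Most CpGs in the genome are methylated, whereas the CpG-rich promoters of active and poised genes are kept free of the mark. Partly methylated CpGs far from promoters often lie at regulatory elements that are used in some cells of a tissue and not in others. In OA, chondrocytes lose their stable phenotype and take up features of hypertrophy, and altered methylation of matrix and protease genes has been linked to the disease.

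The sequences behind the values are shown first, read from GRCm38 (mm10) on the plus strand. The capitals mark the measured CpG. The 8 cytosines that passed a test on pooled reads (described further below) are given with 30 bases on each side, named by the gene they lie in or nearest to. For Lzts3, Col4a1 and Vipr1 the measured cytosine is on the minus strand, opposite the capital G.
Gm13421, chr2:27557104-27557165: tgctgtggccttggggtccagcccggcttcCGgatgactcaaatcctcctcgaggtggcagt
Lzts3, chr2:130635924-130635985: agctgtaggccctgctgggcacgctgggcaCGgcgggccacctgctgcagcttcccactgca
Col4a1, chr8:11283458-11283519: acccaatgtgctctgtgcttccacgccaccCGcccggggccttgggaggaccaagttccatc
Ppp1r3b, chr8:35351352-35351413: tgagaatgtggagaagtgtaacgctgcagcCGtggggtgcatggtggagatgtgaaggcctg
1700063D05Rik, chr9:41221378-41221439: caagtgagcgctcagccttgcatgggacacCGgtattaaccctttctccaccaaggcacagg
Rplp1, chr9:61680988-61681049: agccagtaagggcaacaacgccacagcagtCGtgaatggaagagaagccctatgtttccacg
Vipr1, chr9:121646467-121646528: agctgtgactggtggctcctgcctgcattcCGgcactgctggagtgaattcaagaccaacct
Gm5784, chr12:19703791-19703852: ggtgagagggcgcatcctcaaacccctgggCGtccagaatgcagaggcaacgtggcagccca

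Further stretches with several members each show what lies behind the larger regional differences. The first is in the promoter of Il12a, the second in an intron of Arap1, the third 33097 bp from Gm4610, and the last at the 3' end of the promoter region of Spi1. Each carries the CCGG site that the library enzyme cuts, and capitals again mark measured CpGs.
Il12a, chr3:68691257-68691341: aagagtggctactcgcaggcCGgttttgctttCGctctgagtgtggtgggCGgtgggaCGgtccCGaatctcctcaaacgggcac
Arap1, chr7:101354361-101354431: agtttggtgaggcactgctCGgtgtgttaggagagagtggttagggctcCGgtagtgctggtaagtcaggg
Gm4610, chr3:122343531-122343621: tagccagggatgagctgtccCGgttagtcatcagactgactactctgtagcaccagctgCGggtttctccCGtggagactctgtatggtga
Spi1, chr2:91097101-91097216: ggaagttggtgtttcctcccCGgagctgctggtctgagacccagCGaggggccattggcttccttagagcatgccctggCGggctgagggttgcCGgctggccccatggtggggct

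Reduced representation sequencing samples the CpG-rich part of the genome. The members covered 1159645 CpGs, 5.69% of the 20383623 autosomal CpGs of GRCm38, with 265013 of them read on both strands and 34.8% of the members inside an MspI site. Control replicate 2 was the deepest library, with a median of 142 reads on a member, and DMM replicate 2 the shallowest with 23, while the medians of the others ran from 42 to 115. On the mitochondrial genome, taken here as unmethylated, 0.530% to 0.742% of the reads kept a C. Any 2 libraries differed per cytosine by 2.60 to 5.77 percentage points on average, which was 1.12 to 1.5 times what counting reads alone would give. Libraries of the same limb lay no closer to each other (median 4.26 points over 6 pairs) than libraries of different limbs (median 3.90 points over 9 pairs).

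Mean 5mC was slightly lower in DMM than in control cartilage, and the groups overlapped. Over all members it was 28.3%, 26.7% and 27.3% in control replicates 1, 2 and 3 and 27.1%, 26.3% and 26.7% in DMM replicates 1, 2 and 3. Control replicate 1 was the highest and DMM replicate 2 the lowest, and control replicate 2 lay below DMM replicate 1. The means were 27.4% ± 0.806 (SD, n = 3) in control and 26.7% ± 0.40 (SD, n = 3) in DMM cartilage, a difference of -0.702 points (two-sided exact permutation test, p = 0.3). With 3 libraries against 3 this test cannot go below 0.1. The difference was -0.269 points without control replicate 1 and -1.07 points without control replicate 2. When every read instead of every cytosine had the same weight, the difference turned to 0.322 points. The deepest library, control replicate 2, and the shallowest, DMM replicate 2, were both among the low libraries, and the part of depth in these differences was not tested.

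The same held for each genomic class (the plot of mean 5mC by feature). Promoters, taken as 1000 bp before to 500 bp after a transcription start site (TSS), held 46.1% of the members and were nearly free of 5mC. Their mean was 2.85%, 2.57% and 2.69% in the control and 2.63%, 2.51% and 2.56% in the DMM libraries, a difference of -0.135 points (exact permutation p = 0.2). Introns had 47.1%, 43.9% and 45.2% in control and 44.8%, 43.2% and 44.0% in DMM libraries, a difference of -1.43 points (exact permutation p = 0.3). Exons outside promoters differed by -0.864 points and intergenic cytosines, the most methylated of these classes at 54.3% ± 1.3 and 53.1% ± 0.679 (SD, n = 3 each), by -1.14 points. Across 16 classes (all members, feature, CpG density, repeats and distance to the TSS), DMM was lower in 16, control replicate 1 was the highest library in 16 and DMM replicate 2 the lowest in 16, while the groups overlapped in all of them. Besides all members, weighting by reads turned the difference of intergenic (1.06 points), CpG-intermediate (2.07), repeat (2.06) and cytosines over 100 kb from a TSS (2.49). Weighted by reads, repeats were higher in DMM without overlap (exact permutation p = 0.1, unadjusted and the smallest possible). With the same weight for every cytosine, the exact permutation tests gave adjusted p-values of 0.32 to 0.40.

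**Figure D1:**
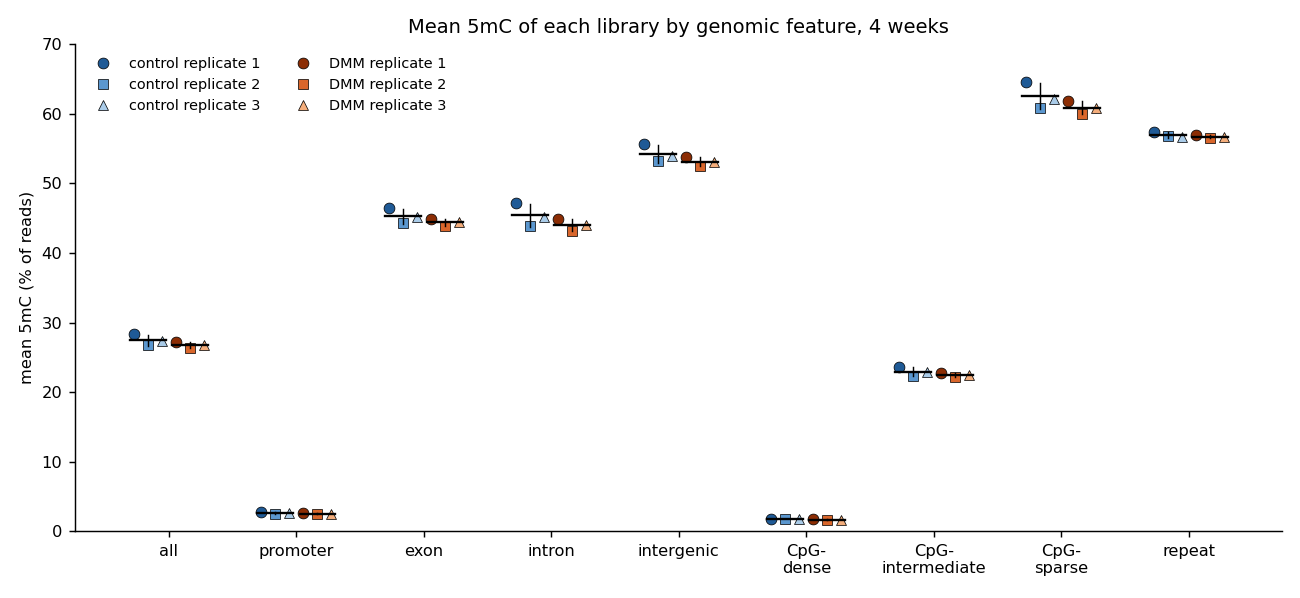
Mean 5mC (percent of reads, y axis) of each of the 6 libraries of 4 weeks over all members and 8 genomic classes (x axis), with the mean of each limb as a line and its SD as a bar (n = 3). Control replicate 1 is the highest and DMM replicate 2 the lowest point in each class, and the limbs overlap throughout.

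CpG density set the level far more than the limb did. CpG-dense members (608218, by the CpG ratio and GC content of the surrounding 500 bp) had 1.78% 5mC in control and 1.71% in DMM cartilage. The 487572 CpG-sparse members had 64.5%, 60.8% and 62.1% in the control and 61.8%, 59.9% and 60.8% in the DMM libraries, which made them the class with the widest gap between limbs (-1.63 points, exact permutation p = 0.3). Soft-masked repeats had the narrowest gap among the methylated classes, with 56.9% ± 0.372 against 56.7% ± 0.195 (SD, n = 3 each). Within 0.5 kb of a TSS the limb means were 2.33% and 2.21%, between 0.5 and 2 kb 11.6% and 11.2%, and beyond 100 kb 67.1% and 65.9%. The order of the extreme libraries was the same on each of the 19 autosomes, where control replicate 1 was highest on 19 and DMM replicate 2 lowest on 19.

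**Figure D2:**
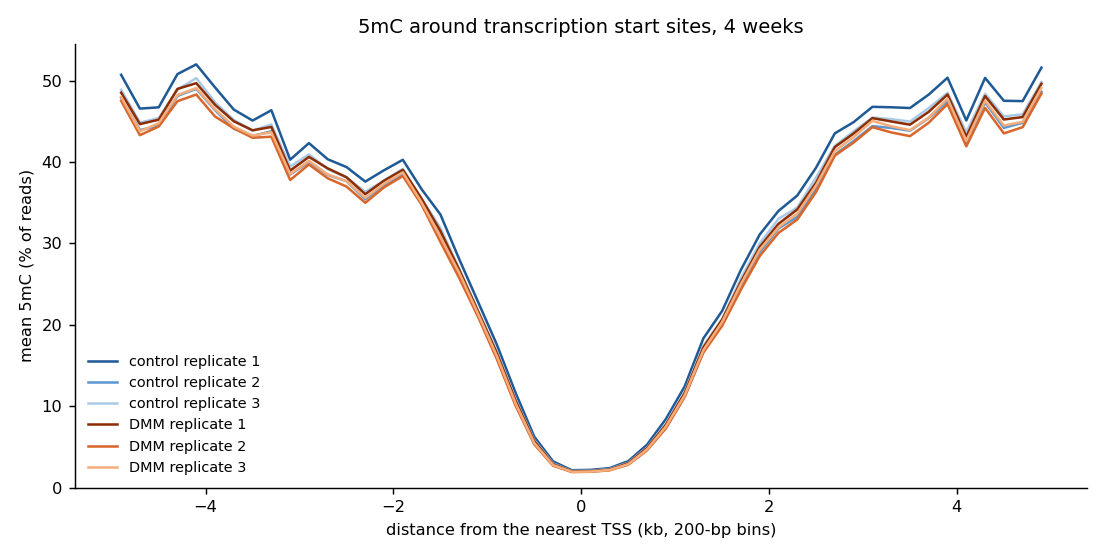
Mean 5mC of members (percent of reads, y axis) in 200-bp bins by distance to the nearest TSS (kb, x axis), 1 line per library of 4 weeks. All 6 lines share a trough of about 2% at the TSS and separate only outside it, where control replicate 1 (dark blue) runs above the others.

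The spread between libraries sat at partly methylated cytosines (the plot of library means by level). Of all members, 63.3% had a mean 5mC under 20%, 17.0% had 80% or more, and 19.7% lay between. For the 69325 members with a mean of 20% to 40% over the 6 libraries, control replicates 1, 2 and 3 had 38.4%, 26.7% and 32.3%, and DMM replicates 1, 2 and 3 had 30.1%, 23.6% and 26.9%. These libraries thus spanned 14.9 points, with 2 control libraries above and 1 among the DMM libraries, and the limb difference was -5.63 points (exact permutation p = 0.3). The class of 40% to 60% spanned 9.92 points and differed by -3.59 points, whereas the class of 80% to 95% spanned 0.740 points and differed by 0.143 points. The class of 20% to 40% was made up of introns (39.2%) and intergenic cytosines (37.3%) and only 7.84% promoter cytosines, and the class under 5% of 74.7% promoter cytosines. Since the classes were cut on the mean of these 6 libraries, the order of classes is a description.

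**Figure D3:**
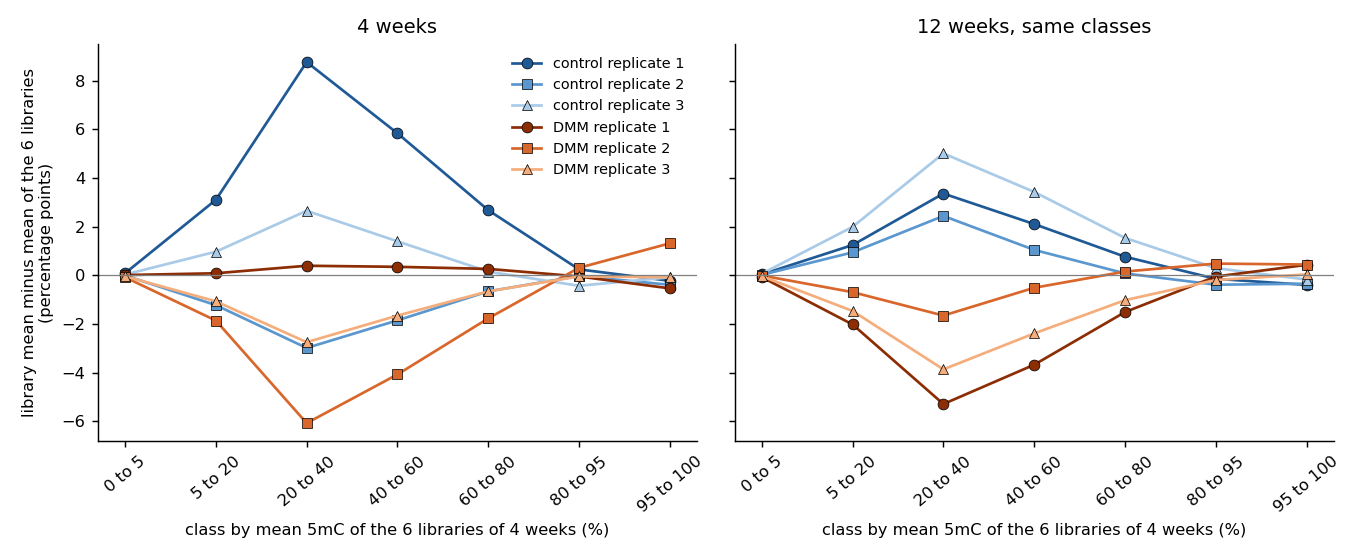
Library mean minus the mean of the 6 libraries (percentage points, y axis) in classes of members by mean 5mC at 4 weeks (percent, x axis), for the libraries of 4 weeks (left) and, on the same cytosines, of 12 weeks (right). At 4 weeks the class of 20% to 40% runs from 38.4% in control replicate 1 to 23.6% in DMM replicate 2, and at 12 weeks the 3 control lines lie above the 3 DMM lines in that class.

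To compare limbs with the library as the unit, reads were summed over promoters, gene bodies (the gene outside its promoter) and 1-kb windows with at least 5 members, and log2 ratios of methylated to unmethylated reads were tested with limma. None of 15014 promoters, 13532 gene bodies or 62978 windows passed an adjusted p of 0.05 (0% called in each). At an unadjusted p under 0.05 there were 642 promoters (4.28%; 203 higher and 439 lower in DMM), 515 bodies (3.81%; 159 and 356) and 2758 windows (4.38%; 881 and 1877), and the lowest adjusted p was 0.876, 0.768 and 0.776. These unadjusted counts depended on single libraries: without control replicate 2 they were 1275 promoters, 2129 bodies (334 higher, 1795 lower) and 8529 windows (1817 and 6712), and without control replicate 1 they were 417, 312 (153 and 159) and 1609 (808 and 801), where the balance between directions was even for bodies and windows. It was also near even with the library mean as a covariate (239 promoters, 134 of them lower, 132 bodies higher and 125 lower, and 538 windows higher and 546 lower). Most units leaned to the lower side in DMM: 61.9% of promoters with a median difference of -0.060 points, and 73.4% of bodies with a median of -0.81 points. The median promoter level was only 0.785%, near the 0.530% to 0.742% of C kept on the mitochondrial genome. The part of incomplete conversion in the lean of promoters was not tested. The groups did not overlap in 9.28% of promoters, 8.30% of bodies and 9.20% of windows. With 3 libraries against 3, labels assigned at random would separate the groups of a unit with a probability of 0.1. Non-overlapping units were more often lower (6.33%, 6.05% and 5.88%) than higher (2.95%, 2.25% and 3.32%) in DMM.

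The first axis of variation among libraries followed the limb only in part. On the percent scale it held 75.1% of the variance of promoter levels, 71.5% of that of bodies and 70.3% of that of windows, and on the log2 ratio scale of the unit tests 38.7%, 52.5% and 48.2%. On windows in percent its weights were 0.736, -0.229 and 0.233 for control replicates 1, 2 and 3 and 0.036, -0.545 and -0.232 for DMM replicates 1, 2 and 3. Control replicate 1 and DMM replicate 2 formed its ends on both scales, and control replicate 2 lay beside DMM replicate 3. Among the 22379 windows with a mean of 20% to 80%, control replicate 1 was the highest of the 6 libraries in 54.2% and DMM replicate 2 the lowest in 41.8%, with a median gap of 6.02 points between them.

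The units with the largest differences among those whose groups did not overlap are described next, 5 in each direction for promoters, bodies and windows. They were picked for their difference, so their 4-week values are a description. None had an adjusted p under 0.05 (limma). The promoter of Il12a, which encodes a subunit shared by the cytokines IL-12 and IL-35, had 35.2%, 56.6% and 51.2% in control and 57.1%, 72.0% and 69.9% in DMM libraries over 10 members. Control replicate 2 came close to DMM replicate 1, and the limb means were 47.6% ± 11.1 and 66.3% ± 8.08 (SD, n = 3 each). All 5 cytosines marked in its printed sequence had the higher mean in DMM, by 20.7 to 27.7 points. At 12 weeks this promoter had 40.1%, 41.5% and 40.4% in control and 60.4%, 59.3% and 52.8% in DMM libraries, again without overlap.

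Cdkn1c, the imprinted gene of the cell cycle inhibitor p57, had a promoter level of 21.7%, 24.6% and 20% in control and 35.0%, 33.8% and 28.3% in DMM libraries. It rested on 6 members whose summed coverage was as low as 71 in a library, where a read counts at each member it covers. The promoters of Spag17, a protein of the ciliary axoneme, of Airn, the imprinted antisense RNA of the Igf2r locus, and of Nrn1, a neurite growth factor, were higher by 7.88 to 8.30 points. Their differences at 12 weeks were 7.02 points for Spag17, 0.833 for Airn and, in the other direction, -1.58 for Nrn1. Sbk1 and 1700123J17Rik, which share a promoter region and its members, had 57.9%, 50.4% and 49.5% in control against 48.2%, 31.0% and 42.8% in DMM libraries. At 12 weeks the difference was 2.21 points, in the other direction.

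Trim72, which codes for a muscle protein of membrane repair, had 45.1%, 28.1% and 36.5% in control and 26.8%, 24.0% and 27.7% in DMM libraries at its promoter, with control replicate 2 just above the DMM group. At 12 weeks it differed by -13.4 points without overlap. Abra, an actin-binding protein of muscle, had 59.2%, 45.9% and 50.2% in control against 45.0%, 38.9% and 44.0% in DMM libraries and differed by -16.5 points at 12 weeks. Gm17266 was the remaining promoter on the lower side, with limb means of 70.3% and 59.9%.

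In windows, the intron of Arap1, a GTPase-activating protein for small GTPases, had 57.4%, 73.0% and 61.8% in control and 76.1%, 85.6% and 81.6% in DMM libraries. The gap of 17.0 points was of similar size at 12 weeks, with 58.0%, 59.8% and 58.6% against 74.8%, 78.1% and 71.1%. An intron of B230217O12Rik (28.3%, 43.5% and 26.3% against 50.8%, 50.5% and 55.5%), an exon of Zfp697 and an exon of Bcas1 were higher in DMM as well, by 17.3 to 19.6 points. On the lower side, the window near Gm4610 had 39.6%, 21.6% and 41.7% in control and 19.7%, 6.71% and 11.6% in DMM libraries. Here control replicate 2 was close to DMM replicate 1. Windows of Slc41a2 (a magnesium transporter), of BC006965 and of Fmnl1 (a formin of leukocytes), and one 101975 bp from Mtss1, differed by -20.9 to -25.9 points. In each of them DMM replicate 2, the shallowest library, was the lowest. It had 0% in Slc41a2, 14.0% in BC006965, 15.9% in Fmnl1 and 15.7% near Mtss1. Neighbouring cytosines in these windows had as few as 10 to 14 reads in a library. None of these 5 lower windows had 5 members with enough reads in all libraries of 12 weeks.

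Among gene bodies, B3galt6, which adds a galactose of the linker that joins glycosaminoglycan chains to proteoglycans, had 42.1%, 57.1% and 45.2% in control and 58.2%, 62.1% and 60.5% in DMM libraries over 5 members. At 12 weeks its values were 41.5%, 41.2% and 31.5% against 59.5%, 52.0% and 55.6%. Bodies of Rab11fip4os2, Tnk2os, Ripply3 and 4933438B17Rik were higher by 7.71 to 9.89 points. Ccdc80, a secreted protein of the extracellular matrix, had the widest gap on the lower side, with 53.3%, 38.4% and 44.5% in control against 35.0%, 19% and 18.9% in DMM libraries. Dnph1, a nucleotide hydrolase, had 58.4%, 46.8% and 60.1% in control and 46.7%, 34.6% and 35.9% in DMM libraries, and control replicate 2 and DMM replicate 1 nearly touched. The non-coding gene Gm32141 had 58.2%, 48.6% and 55.5% against 42.3%, 26.9% and 37.8%, and it differed by -18.1 points at 12 weeks. BC006965 and Zmynd12 differed by -17.4 and -15.7 points.

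**Figure D4:**
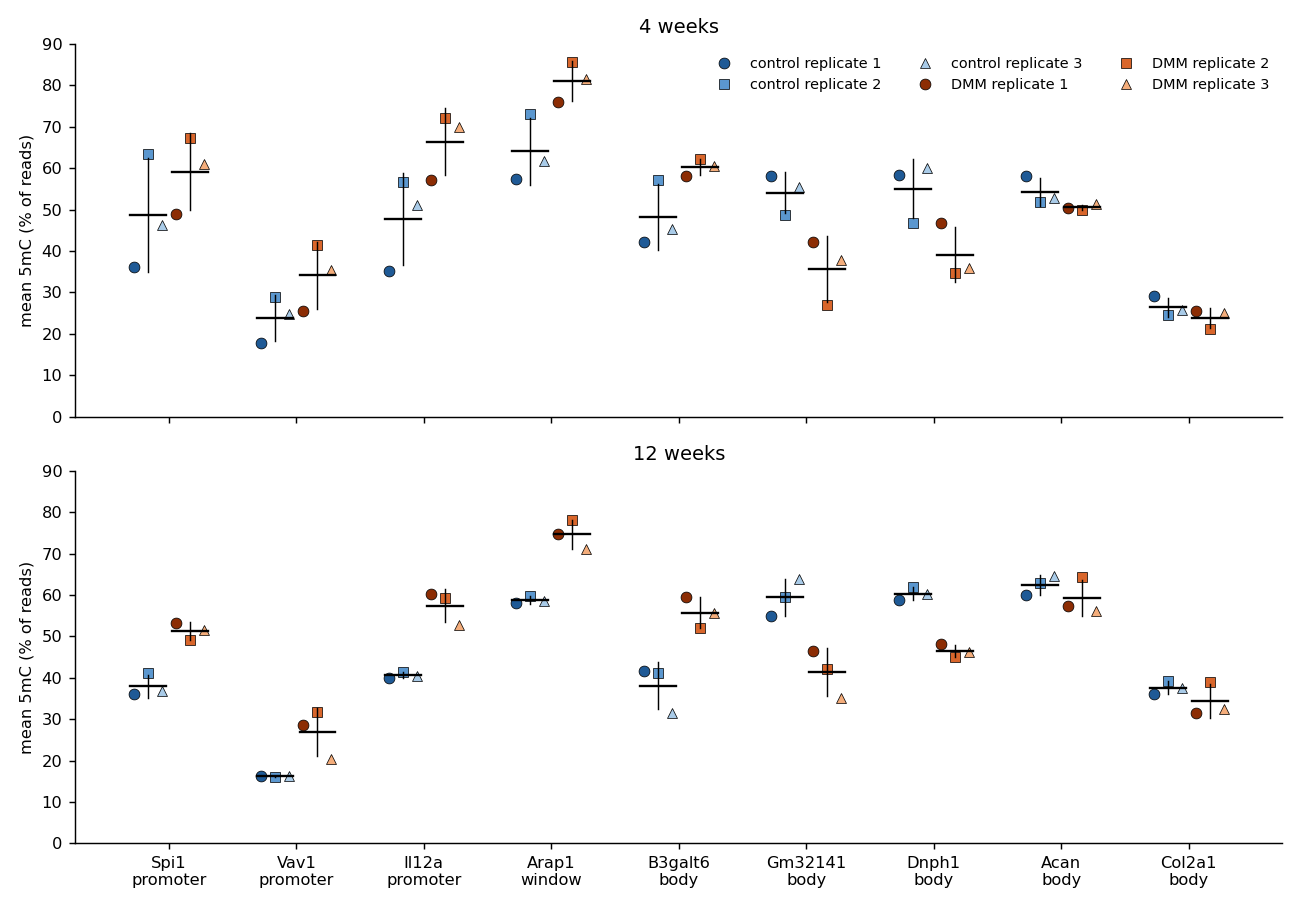
Mean 5mC (percent of reads, y axis) of 9 promoters, windows and gene bodies (x axis) by library, at 4 weeks (top) and 12 weeks (bottom), with limb means as lines and SD as bars (n = 3). Il12a, Arap1, B3galt6, Gm32141 and Dnph1 keep their direction without overlap in both rows, while Spi1 and Vav1 overlap at 4 weeks and not at 12 weeks.

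Single cytosines were also compared on the summed reads of each limb (logistic model, likelihood ratio), with a difference of at least 25 points and a Benjamini-Hochberg q under 0.05. Of the members, 8 met both (5.62e-04%), 3 of them higher (2.11e-04%) and 5 lower (3.51e-04%) in DMM. This test treats reads as units and gives the 2 deepest libraries the most weight. Once the spread between libraries of a limb entered the test, none was called (8102 of 1424658 at an unadjusted p under 0.05). Limma on single cytosines called none either (16841 of 1424658 at an unadjusted p under 0.05). Both counts were below a share of 0.05 of the cytosines tested. In 87580 cytosines (6.15%) the groups did not overlap, with 2.39% higher and 3.76% lower in DMM. Without control replicate 2, the library with the most reads, 3016 cytosines were called, and without DMM replicate 1, the next deepest, 191. With the replicate number as a block (closing section), 680 were called, 127 higher and 553 lower in DMM. That run used another test, a Mantel-Haenszel test that also treats reads as units. It also took the 25 points from unweighted library means, which 1137 members reached, against 115 on pooled reads. The change from 8 to 680 therefore cannot be assigned to the block alone.

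Of the 3 cytosines that were higher in DMM, that in a coding exon of Lzts3, a synaptic leucine zipper protein, had 14.6%, 39.4% and 34.6% in control and 59.3%, 65.5% and 71.4% in DMM libraries, on 26 to 86 reads. It kept its direction without overlap at 12 weeks, with 33.9%, 23.8% and 28.1% against 42.6%, 44.8% and 51.4%. The cytosine in an intron of Col4a1, a collagen chain of basement membranes and pericellular matrix, had 32.4%, 58.0% and 41.7% against 73.6%, 75.0% and 85.7%. A cytosine 232265 bp from Rplp1 had 3.85%, 20.5% and 6.25% against 47.1%, 46.7% and 36.1%, and was level between limbs at 12 weeks (a difference of -3.54 points).

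Of the 5 lower cytosines, the one 24377 bp from Ppp1r3b, a glycogen-targeting subunit of protein phosphatase 1, had the widest gap, with 100%, 90.9% and 100% in control and 66.7%, 50% and 51.9% in DMM libraries, on only 10 to 30 reads. The intronic cytosine of Vipr1, a receptor of vasoactive intestinal peptide, had 73.9%, 70.4% and 85.7% against 50.6%, 55.6% and 41.2%. Near Gm13421 the values were 73.8%, 40% and 46.2% against 28.0%, 9.09% and 29.5%, and near 1700063D05Rik 57.1%, 43.8% and 54.8% against 23.2%, 21.1% and 19.4%. In the cytosine near Gm5784 the limbs overlapped, with 45.0%, 59.2% and 32.0% against 20.3%, 41.2% and 24.4%, so that its pooled difference of -27.5 points became -16.8 points as a difference of library means. Of the 8, 7 lay in CpG-sparse sequence, 0 in a soft-masked repeat and 3 in an MspI site, against 34.2%, 7.40% and 34.8% of all members. A mean 5mC of 20% to 80%, which leaves room for a wide difference, was found at 47.6% of CpG-sparse and 19.7% of all members. A q under 0.05 without the 25 points was reached by 273 cytosines (27 higher, 246 lower), of which 70.3% lay in the top 0.1% of coverage of a library. Their median difference was only 2.07 points.

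**Figure D5:**
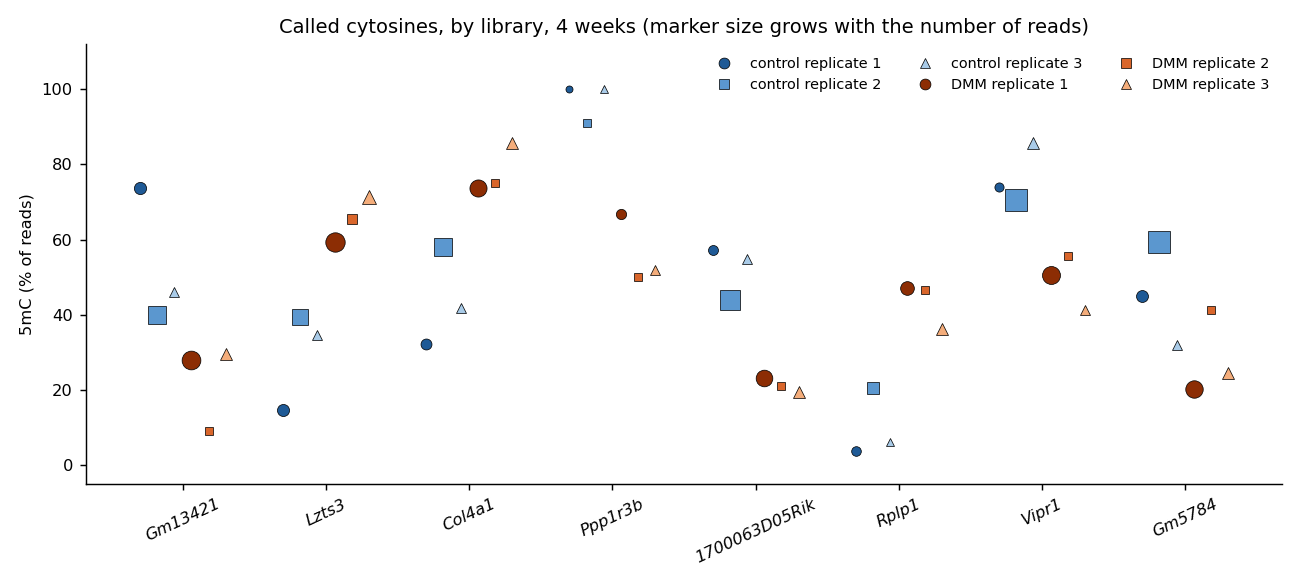
5mC (percent of reads, y axis) of the 8 cytosines that met the pooled-read criteria (x axis, named by the gene they lie in or nearest to) in each library of 4 weeks, with marker size growing with reads. The limbs are apart at 7 of the 8 and overlap at Gm5784, and the small markers at Ppp1r3b stand for 10 to 30 reads.

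Genes of cartilage matrix were measured at 12 promoters and 17 bodies of a list of 22. At promoters 4 were higher and 8 lower in DMM (median -0.460 points against -0.060 over all promoters), and at bodies 4 were higher and 13 lower (median -1.39 against -0.81 points). None had an adjusted p under 0.05 (limma), which also holds for each list below. The promoters of Col2a1, the fibrillar collagen of cartilage, and Acan, its main proteoglycan, stayed under 2% in all 6 libraries, as did that of Sox9, the factor that drives both genes. Within these genes 5mC was intermediate. The body of Acan had 58.2%, 51.8% and 52.8% in control and 50.4%, 50% and 51.3% in DMM libraries, where the groups were just apart, and that of Col2a1 had 29.0%, 24.5% and 25.6% against 25.5%, 21% and 24.9%. Acan and Col2a1 were named for their role.

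The promoter of Cnmd, which encodes chondromodulin, an inhibitor of vessel growth in cartilage, had 46.3%, 31.4% and 37.5% in control against 33.1%, 28.7% and 29.0% in DMM libraries. That of Col11a2, a minor fibrillar collagen, had 14.3%, 7.73% and 11.4% against 9.95%, 4.94% and 6.69%, and that of Col9a3 had limb means of 5.57% and 4.35%. In these 3 promoters control replicate 1 was highest and DMM replicate 2 lowest, as over all members, and the limbs overlapped. Of the 12 promoters of the matrix list 1 was without overlap, near the share of all promoters (9.28%), and it was higher in DMM: Cilp2, a cartilage intermediate layer protein, had 3.12%, 3.22% and 3.23% against 4.17%, 4.76% and 3.77%. The 14 promoters of chondrocyte transcription factors (4 higher, 10 lower, median -0.062 points) were at 3.11% or less in each library, except for an alternative promoter of Sox6, a cofactor of Sox9, at 50.3%, 26.5% and 39.3% in control and 32.5%, 14.0% and 31.2% in DMM libraries.

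Among genes of hypertrophy and ossification, 3 of 10 promoters were higher and 7 lower, and 2 of 12 bodies higher and 10 lower (median -2.59 points). The promoter of Spp1, which encodes osteopontin, had 20.1%, 19.7% and 17.6% in control against 14.5%, 14.4% and 15.5% in DMM libraries and did not overlap. Sp7, the osteoblast factor osterix, had limb means of 22.7% and 18.2% with overlap, and the promoter of Ihh stayed under 2%. Of the 12 bodies 4 were lower without overlap (Ibsp, Col10a1, Pth1r and Sp7) and 1 higher (Phospho1), against 6.05% and 2.25% of all bodies, and the germline list likewise had 4 of 12 bodies lower without overlap. These genes were named after their values were seen. Ibsp, bone sialoprotein, had 48.7%, 39.4% and 47.4% against 36.7%, 31.5% and 37.9%, and Col10a1, the collagen of hypertrophic chondrocytes, 77.3%, 77.3% and 77.6% against 70.9%, 74.9% and 71.7%. Phospho1, a phosphatase of matrix mineralisation, had 8.26% to 14.2% in the control and 16.7% to 17.7% in the DMM libraries. In RNA from other mice at 4 weeks, Ibsp had 2900 ± 696 CPM (read counts scaled to the library total) in control and 5914 ± 597 in DMM cartilage, Col10a1 791 ± 198 and 898 ± 328 CPM, and Sp7 35.6 ± 4.89 and 27.3 ± 11.5 CPM (SD, n = 3 each). The RNA groups overlapped for Col10a1 and Sp7 and not for Ibsp.

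Matrix proteases and their inhibitors (1 promoter higher and 8 lower, 3 bodies higher and 10 lower) had promoters at low levels, with limb means of 1.51% and 0.856% at Timp3, 1.55% and 1.11% at Adamts5 and 3.38% and 3.23% at Htra1, and bodies with a median difference of -3.37 points. Of 12 promoters of inflammation genes 5 were higher and 7 lower. Ptges, a prostaglandin synthase, had 16.5%, 6.78% and 12.1% in control against 8.92%, 4.61% and 7.36% in DMM libraries, and Il11 had limb means of 12.3% and 9.87%. Without overlap, 2 of the 12 were higher and 0 lower, against 2.95% and 6.33% of all promoters. Nos2, the inducible nitric oxide synthase, was 1 of these 2 but at a low level, 1.41% against 2.30%. Of 25 promoters of TGF-beta, BMP and WNT signalling 8 were higher and 17 lower. Bmp4 had 16.7%, 16.2% and 13.8% against 18.8%, 18.6% and 16.9%, whereas Dkk3 (3.40% and 2.42%) and Tcf7 (3.64% and 2.78%) were on the lower side.

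The study discusses 14 genes on the strength of these samples, so their direction here is not independent evidence. Of their promoters 10 could be measured (Lrrc15, Adamts16, Ptgs2, Itgb1, Itgb3, Itgb4, Smad3, Timp2, Col4a1 and Col5a1), 3 higher and 7 lower in DMM with a median of -0.053 points. The promoter of Lrrc15, a membrane protein with leucine-rich repeats, had 8.16%, 4.75% and 8.22% in control and 7.28%, 3.67% and 5.64% in DMM libraries and overlapped, and the other 9 had limb means under 4%. Bodies were measured for these genes except Ptgs2, and for Col6a3 and Lrrc17, and 2 of 11 were higher and 9 lower with a median of -2.99 points. Their mean was 55.1%, 48.5% and 51.3% in control and 51.1%, 46.1% and 48.5% in DMM libraries. The body of Itgb3, an integrin subunit, was the only one of the 11 without overlap (8.30% of all bodies were), at 66.2%, 62.5% and 63.9% against 61.9%, 60.6% and 61.2%. Aspn and Mmp3 had too few members at either place.

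Genes of blood-forming cells were mixed. Of 11 promoters of a haematopoietic list 7 were higher and 4 lower in DMM (median 0.306 points), while 61.9% of all promoters were lower, and 0 of the 11 were without overlap, against 9.28% of all promoters. The list mean was 15.4%, 20.9% and 18.2% in control and 18.4%, 23.4% and 22.1% in DMM libraries, and here control replicate 1 was the lowest and DMM replicate 2 the highest. Spi1, the master factor of myeloid cells, had 36.1%, 63.5% and 46.4% against 49.0%, 67.3% and 61.0%, with control replicate 2 inside the DMM range, and its log2 ratio difference turned to -0.125 with the library mean as a covariate. The 5 cytosines of its printed sequence differed in the same direction, by 9.32 to 15.7 points. Vav1, a signalling protein of leukocytes, had 17.8%, 28.9% and 24.7% against 25.4%, 41.4% and 35.5%, and Inpp5d, a lipid phosphatase of blood cells, 26.1%, 48.5% and 42.9% against 41.7%, 56.5% and 57.2%.

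Of the other haematopoietic promoters, Runx3, Ikzf1, Coro1a, Lcp1, Tal1 and Gfi1 were at 3.31% or less in each library, while higher levels were found at Lyl1 (12.3%, 19.3% and 16.9% against 17.3%, 23.3% and 21.8%). Across the 19 bodies of the list 9 were higher and 10 lower (median -0.092 points), with a mean of 50.4%, 51.6% and 50.9% against 51.3%, 52.6% and 51.8%. In RNA of 4 weeks from other mice, the summed level of the 24 genes was 3630, 6833 and 12738 CPM in control and 6363, 8807 and 7405 CPM in DMM libraries, so the groups overlapped. The part of such cells in the methylation differences was not tested.

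Promoters of skeletal muscle genes leaned the other way, with 2 of 12 higher and 10 lower (83.3% against 61.9% of all promoters, median -0.779 points). Their median level was 16.6%, against 0.785% over all promoters. Of all promoters with a mean of 20% to 80%, 68.9% were lower, with a median of -2.04 points. Of the 12 muscle promoters, 0 were without overlap, against 9.28% of all promoters. Muscle bodies were near the share of all bodies, with 13 of 18 lower (72.2% against 73.4%). Tnni2 and Pygm, a troponin and the muscle glycogen phosphorylase, had limb means of 54.3% and 47.7% and of 24.5% and 19.5%, and Ckm, the muscle creatine kinase, of 53.7% and 49.5%, all with overlap. The list mean was 31.1%, 28.2% and 29.8% in control and 28.6%, 27.4% and 27.8% in DMM libraries. The RNA level of 25 muscle genes, summed, was 24253, 8431 and 7865 CPM in control and 4435, 2070 and 675 CPM in DMM cartilage of other mice, and its relation to 5mC was not tested. Endothelial promoters (4 higher, 4 lower) included Eng, with 15.7%, 25.4% and 20% against 19.2%, 26.5% and 32.2%, Esam (8.91% and 10.3%) and Nos3 (70.2% and 67.7%). Of 8 promoters of fibroblasts and synovium 2 were higher and 6 lower, among them Scx and Thbs4 with limb means of 8.86% and 7.81% and of 3.35% and 2.69%. Only 4 adipocyte promoters were measured (1 higher, 3 lower), with Lep at 68.4% and 66.9%, Pparg at 2.73% and 2.19% and Lpl at 0.591% and 1.12%.

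Imprinted and germline genes were described by their levels. Promoters of imprinted genes, of which some carry 5mC on the allele of 1 parent and others are unmethylated, had a mean of 34.4%, 32.9% and 32.1% in control and 33.2%, 33.9% and 33.3% in DMM libraries over 30 units, 15 of them higher and 15 lower. Of these, 2 were higher without overlap (Cdkn1c and Airn, described above) and 5 lower without overlap (H19, Igf2r, Zdbf2, Grb10 and Gnas, named after their values were seen), against 2.95% and 6.33% of all promoters. H19, an imprinted non-coding RNA, had 51.6%, 51.9% and 52.5% against 46.8%, 47.1% and 46.2%, and Igf2r limb means of 28.7% and 26.3%, while the other 3 were under 3% in each library. Mcts2 overlapped at 63.8%, 41.3% and 52.3% against 47.5%, 40.5% and 42.1%. Germline promoters, which stay methylated in body cells, had means of 81.8% to 85.5% over 19 units (7 higher, 12 lower), of which 3 (Ddx4, Tdrd1 and Tex19.1) were lower without overlap against 6.33% of all promoters. Ddx4, an RNA helicase of germ cells, had 77.6%, 68.3% and 71% against 65.4%, 63.1% and 66.1%, and Tdrd1, a protein of the piRNA pathway, 59.5%, 57.1% and 58.8% against 54.4%, 51.2% and 55.8%, both without overlap. Zfp42 overlapped at 77.5% and 73.2%. Genes of the methylation machinery had a balanced count (7 promoters higher, 8 lower), with an alternative promoter of Dnmt3a at 7.18%, 14.5% and 9.75% against 11.9%, 17.4% and 12.5% and Uhrf1 and Gadd45a at 3.04% or less.

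The libraries of 12 weeks gave the same direction with less overlap. They played no part in choosing the units with the largest 4-week differences, whereas members and gene lists were chosen with earlier results of these data known. On the 1196554 members also covered there, mean 5mC was 29.2%, 28.9% and 29.5% in control and 28.0%, 28.7% and 28.2% in DMM libraries, a difference of -0.906 points without overlap (exact permutation p = 0.1, the smallest possible). The difference between the 2 time points was -0.175 points (exact permutation of limb labels within each week, 400 regroupings, p = 0.855), and over the 16 classes the adjusted p was 0.93. In the members of 20% to 40% at 4 weeks, the 12-week values were 37.9%, 37.0% and 39.6% in control and 29.3%, 32.9% and 30.7% in DMM libraries. At 12 weeks control replicate 2 and DMM replicate 1 share a style of title that the other libraries do not have. Among the other 4 libraries the style differs by limb, so title style and limb cannot be told apart there. On shared units the limbs were apart in 16.3% of promoters, 29.9% of bodies and 21.6% of windows at 12 weeks, against 9.32%, 8.36% and 9.25% at 4 weeks. No unit passed an adjusted p of 0.05 at 12 weeks either (limma, lowest adjusted p 0.185, 0.123 and 0.153). At an unadjusted p under 0.05 (limma) there were 1260 of 14649 promoters, 2016 of 12968 bodies and 8421 of 56120 windows. On the same cytosines the counts at 4 weeks were 661, 511 and 2472.

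Units that stood apart at 4 weeks were compared with all units for their direction at 12 weeks. Of the 1864 windows that were higher in every DMM library at 4 weeks, 58.3% were higher at 12 weeks, against 37.9% of all 56120 windows, and 11.3% were again without overlap, against 5.30% of all. Of the 3326 lower windows 69.7% were lower at 12 weeks, against 62.1% of all. For bodies the shares were 59.8% against 26.4% on the higher and 80.7% against 73.6% on the lower side, and for promoters 52.1% against 41.5% and 59.7% against 58.5%. On the lower side the share again without overlap was near that of all units for windows (17.1% against 16.3%) and promoters (12.4% against 11.6%), and below it for bodies (21.1% against 25.9%). Of the 30 units with the largest 4-week differences 20 had 12-week values, 17 of these had the same direction, and 12 were again without overlap. Il12a enters these counts as a promoter and as a window with the same members, and Sbk1 and 1700123J17Rik enter as separate promoters with the same members. For Spi1 the 12-week values were 36.0%, 41.2% and 36.8% in control and 53.3%, 49.2% and 51.5% in DMM libraries, and for Vav1 16.2%, 16.1% and 16.4% against 28.5%, 31.8% and 20.4%, so both promoters that overlapped at 4 weeks were apart. This was not particular to them, and other promoters went from overlap to apart on the lower side. Lrrc15 had 8.71%, 9.56% and 9.37% in control against 5.26%, 6.95% and 7.43% in DMM libraries at 12 weeks. Tnni2 had 61.6%, 63.1% and 66.1% against 53.9%, 54.1% and 54.0%.

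5hmC, computed as bisulfite minus oxBS percent on the 1273505 members with enough reads in both forms, was low and leaned upward. It was 1.64%, 2.64% and 2.20% in control and 2.34%, 2.87% and 2.56% in DMM libraries, means of 2.16% ± 0.504 and 2.59% ± 0.267 (SD, n = 3 each; difference 0.430 points, exact permutation p = 0.3). The order of libraries was the reverse of that of 5mC, and since oxBS is subtracted, an oxBS value enters both measures with opposite sign. The bisulfite percentage, which reads both marks, spanned only 30.4% to 31.3%, and its difference was -0.313 points (exact permutation p = 0.2). CpG-sparse members had 5.07% ± 1.18 and 6.07% ± 0.635 5hmC, introns 4.32% ± 1.02 and 5.19% ± 0.531, and promoters 0.229% and 0.278%. By level, 5hmC was highest at cytosines of 40% to 60% 5mC (6.65%, 10.9% and 9.00% in control, 9.53%, 12.5% and 10.7% in DMM libraries), the range where 5mC also varied. In the body of Ccdc80 5hmC was 8.64% and 25.9%, in the window near Mtss1 2.06% and 21.4%, and in that of B230217O12Rik 20.2% and 9.97%, in each case opposite to 5mC.

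Grouped by RNA level in cartilage of other mice at 4 weeks, promoters of silent genes (under 0.1 CPM) had 20.8% 5mC in control and 20.2% in DMM libraries, and 20.4% of them were above 50%. Those of genes at 100 CPM or more had 2.82% and 2.64%. Gene bodies went from 53.9% and 52.9% at under 0.1 CPM to 43.8% and 41.8% at 100 CPM or more. The median difference between limbs was -0.645 points in bodies of silent genes and -1.22 points in those of the most abundant RNAs, with 70.1% and 77.5% of bodies lower in DMM. This order over groups of genes is a description, and the libraries of each group share the same 6 DNA samples. The RNA carried cartilage genes, with Col2a1 at 866 ± 87.3 and 1041 ± 484 CPM and Acan at 432 ± 110 and 298 ± 154 CPM (SD, n = 3 each). Matn1, a matrix protein of hyaline cartilage that is scarce in articular cartilage, had 1.17 and 0.503 CPM.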

How the data were processed

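Reduced representation oxBS libraries of 4 weeks (3 control, 3 DMM) were used. The authors digested DNA with MspI, indexed 6 libraries, combined them, split the pool for oxidation and bisulfite conversion, trimmed reads with CUTADAPT and ran their own pipeline for the methylation calls; the submitters' processing notes name Bismark, CASAVA 2.17 and mm10. The deposited values are, for each CpG cytosine and strand, its coverage in read counts and the percent of reads with C and T. RNA values were deposited as raw counts per RefSeq transcript and were scaled here to CPM of the most abundant transcript of each gene, without a test. Members and gene lists were chosen with earlier results of these data known.

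C reads were coverage times percent. Features came from RefSeq on GRCm38. Library means were compared by two-sided exact permutation tests. Sums over promoters (1000 bp before to 500 bp after a TSS), bodies and 1000-bp windows with at least 5 members were tested as log2((C + 1)/(T + 1)) with limma 3.58.1 in R 4.3.3, Benjamini-Hochberg adjusted. Cytosines were tested by a logistic likelihood ratio test on pooled reads (numpy 2.4.6, scipy 1.17.1); the thresholds are those of the study, which used methylKit, while the test and its adjustment were chosen here. The tests were run on simulated data, for cytosines without a spread between libraries and for promoters with a reduced spread. These runs therefore do not cover the spread seen between the libraries here. Named were the cytosines called, per kind of unit the 5 largest differences in each direction without overlap, the 3 largest promoter differences of each list, and the genes the study discusses. A further minimum of 30 for the summed coverage per library removed no unit, since 5 members with 10 reads each exceed it. Libraries are pools of 3 knees, control knees are contralateral to operated knees, and whether pools with the same number hold the same mice is not stated. Replicate numbers were not used to pair the libraries in the main tests (closing section). Alternatives were another pseudocount (0.5), at least 10 members, coverage of at least 20, unweighted percentages, weighting by reads, a narrower promoter, other thresholds, merged strands, a replicate block, each library left out and, added after seeing the data, the library mean as a covariate. Values of 1 gene of the haematopoietic list are not reported here.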

Additional observations from a re-analysis of the deposited data

How the results depend on the processing

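Across 113 results and 1298 alternative values, 1199 kept direction and side of the threshold, 56 lost a call, 12 counts moved by over 1.5 times and 31 values reversed. Weighting by reads reversed the mean difference of all members (0.322 points), intergenic (1.06), CpG-intermediate (2.07), repeat (2.06, without overlap) and cytosines over 100 kb from a TSS (2.49). The 8 called cytosines became 0 with overdispersion or with limma per cytosine, 3 at q under 0.01, 26 at 20 points, 24 with unweighted means, 4 at coverage 20 and 1 without the top 0.1% of coverage; leaving out 1 library gave 5 to 3016. With the replicate number as a block, a Mantel-Haenszel test on reads and unweighted differences, 680 were called. Deviations of same-numbered libraries from their limb mean correlated on windows at r = 0.286, 0.242 and -0.011. Those of control replicate 1 with DMM replicate 2 and of control replicate 2 with DMM replicate 1 correlated at -0.227 and -0.313. Deviations within a limb of 3 libraries are bound to each other, so these correlations cannot decide whether the pools are paired. The labels do not state it, and the main tests did not pair libraries. Mean 5mC of control minus the same-numbered DMM library was 1.16, 0.367 and 0.579 points. In limma, the replicate number as a block left promoters, bodies and windows at 0 calls. At an unadjusted p under 0.05 it gave 1081 of 15014 promoters, 1822 of 13532 bodies and 7567 of 62978 windows. Leaving out 1 library moved the limb difference of all members from -1.07 to -0.269 points, of promoters from -0.202 to -0.063, of exons from -1.35 to -0.285, of introns from -2.17 to -0.560, of intergenic cytosines from -1.70 to -0.426, of CpG-sparse cytosines from -2.47 to -0.619 and of 5hmC from 0.169 to 0.671, each time with the extremes without control replicates 1 and 2. It gave a range for the change of the limb difference from 4 to 12 weeks of -0.625 to 0.202 points for all members, -0.104 to 0.043 for promoters, -0.827 to 0.267 for exons, -1.23 to 0.426 for introns and -1.01 to 0.273 for intergenic cytosines; among these, leaving out DMM replicate 1 of 4 weeks gave 0.038 (all), 0.0089 (promoters), 0.015 (exons), 0.079 (introns) and 0.073 (intergenic), and DMM replicate 1 of 12 weeks 0.00088 (promoters) and 0.044 (exons). With the library mean as a covariate, added after seeing the data, the log2 ratio differences of some promoters reversed: Dnmt3a (-0.040), Spi1 (-0.125), Tcf7 (0.068), Lep (0.015), Lrrc15 (0.047), Scx (0.112), Zfp42 (0.072), Sp7 (0.042), Il11 (0.077) and Ptgs2 (0.023). The promoter of Col4a1 was -0.088 points on the percent scale, and leaving out 1 library reversed its log2 ratio (range -0.072 to 0.201) and that of Lep (range -0.198 to 0.031). The cause of these changes was not tested. DMM replicate 2 had a median of only 23 reads on a member.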

Other observations

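Methylation of members also varied with the sequence around the CpG, in the same order in each library. Members with a C before the CpG, as in an MspI site, had 33.2% 5mC in control and 32.3% in DMM libraries, those with an A 29.9% and 29.0%, those with a T 26.7% and 26.2%, and those with a G 15.6% and 15.3%. Cytosines inside an MspI site, which lie at fragment ends, had 40.6% and 39.5%, and those outside it 20.4% and 19.9%. The 2 strands of a CpG, read in separate reads, differed by 4.23 to 5.69 points on average over 265013 CpGs, least in control replicate 2 and most in DMM replicate 2, the deepest and the shallowest library. A level of exactly 0% was found at 21.5% of the members in control replicate 2 and at 49.7% in DMM replicate 2, and the median coverage of these libraries was 142 and 23 reads.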
